A study of Mus musculus with 8 samples.

Results

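The genes described here carry the names of the machinery that copies and separates chromosomes: origin and helicase proteins (Orc, Mcm, Gins and Cdc45), cyclins D3 and E1 (Ccnd3 and Ccne1), numbered Cdk and Cdc genes, Cdca genes, centromere proteins (Cenp), parts of the kinetochore (Spc24, Ska3, Dlgap5), checkpoint and mitotic kinases (Bub1b, Bub3, Aurka, Plk2), condensin subunits (Ncap) and Arhgap11a. They were chosen by symbol, with the Cdc42 family left out. The rule itself uses no measured value, but it was set with earlier results of these data known. Of the 22511 probe sets of the array, 14661 were assigned to exactly 1 gene symbol, and 112 of these, for 65 genes, met the rule. A choice by name also takes in genes that act elsewhere, such as Cdk13 in transcription, Cdc40 in splicing and Cdc73 in the Paf1 complex, and these are described under their own roles.

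RNA came from the brain of T9H/+ mice, which carry 1 copy of a translocation that exchanges parts of chromosomes 7 and 15. Every sample held a uniparental duplication: paternal-7 arrays had both copies of proximal chromosome 7 from the father together with proximal chromosome 15 from the mother, and maternal-7 arrays had the reverse. With each duplication 4 contexts were sampled, neonatal cerebellum, neonatal cortex (forebrain), and embryonic brain at 15.5 and at 13.5 days post coitum (dpc), with 1 Affymetrix 430B array for each, 8 in all. All samples thus share T9H heterozygosity and a duplication, and none is a wild-type brain. The labels give no neonatal age in days, no breakpoints, and no word on separate animals or pooling, and p-values therefore speak only of the scatter among these arrays, which may be technical.

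Before a cell divides, origin recognition proteins and Mcm helicase subunits are loaded onto DNA, and the Gins complex and Cdc45 switch the helicase on when S phase begins under cyclin-dependent kinases. In mitosis, Cenp proteins and the Ndc80 complex form the kinetochore that binds spindle microtubules, Bub proteins hold the cell back until all chromosomes are attached, condensins compact the chromosomes, and the anaphase-promoting complex (APC/C) ends mitosis by marking cyclins and securin for destruction. In the embryonic brain the dividing cells are mainly progenitors that line the ventricles, while in the neonatal cerebellum the precursors of granule neurons continue to divide in the external granular layer and in the neonatal cortex mainly glial precursors do.

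Values are signal intensities in MAS5 units. Testing was limited to probe sets brighter than the array median (229.8 to 286 units) in 2 or more of the 8 samples. That left 75 of the 112 probe sets and 50 of the 65 genes, out of 13221 probe sets tested in all. Log2 differences are on the scale log2(signal + 58.5), which understates the change of dim probe sets, and ± after them is the standard error of a limma model with terms for context and duplication (3 residual degrees of freedom). "Called" means a Benjamini-Hochberg adjusted p under 0.05 over all 13221. Within a context and duplication there is 1 array, so the error is the departure of the 8 values from additivity. Pairs of signals are given with the paternal-7 array first and the maternal-7 array after it. Where a gene has several probe sets they are numbered from the highest mean signal. The 37 probe sets that were not tested exceeded the median on 0 arrays (32) or on 1 (5). They ran from 0.527 to 406 units and include every probe set of Aurka, Bub3, Cdc16, Cdc23, Cdc25a, Cdc45, Cdca7, Cdk2, Cdk2ap2, Cdk5, Gins1, Mcm10, Mcm6, Orc4 and Ska3, whose levels therefore cannot be compared here.

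In neonatal brain regions the replication and mitosis genes stood lower than in embryonic brain. Of the 75 probe sets, 40 from 30 genes were called lower, where 16.4% of all tested probe sets were, and 2 were called higher, where 14.3% of all were. On the scale used here the falls were steepest for Arhgap11a, Spc24, Bub1b and Gins2, and the 2 rises were those of Cdc73 and of 1 of 3 probe sets of Cdk7. The median log2 difference was -0.52 over the 75 and -0.16 over all tested. Below 0 lay 66 of the 75 and 61.9% of all tested. In 34 of the 75 (45.3%) all 4 neonatal arrays read lower than all 4 embryonic arrays, against 16.5% of all tested, and 31 of the 40 called lower were of this kind. In tissue RNA, fewer dividing cells and less of these RNAs per dividing cell cannot be told apart.

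With each array centred on its median, the median difference of all tested probe sets moved to 0.02, calls over all split into 2398 higher and 1058 lower (1887 and 2168 as deposited), and 29 of the 75 were called lower and 2 higher, with a median of -0.35. Without the paternal-7 cortex array 26 were called lower and 1 higher, without both cortex arrays 27 and 0, and without both 13.5 dpc arrays 17 and 0. Of the 42 calls, 27 held without any single array, and 16 of those also without any context. Leaving out at least 1 of the 8 arrays ended the falls of Cdc26, Cdc14a, Ccnd3, Cenpf, Cenpj, Orc1, Mcm8 and Cdc37l1, of the brightest probe sets of Cdc14b and Cenpu, and of both called probe sets of Gins3 and of Cdk13, and the rise of Cdk7.

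**Figure D1:**
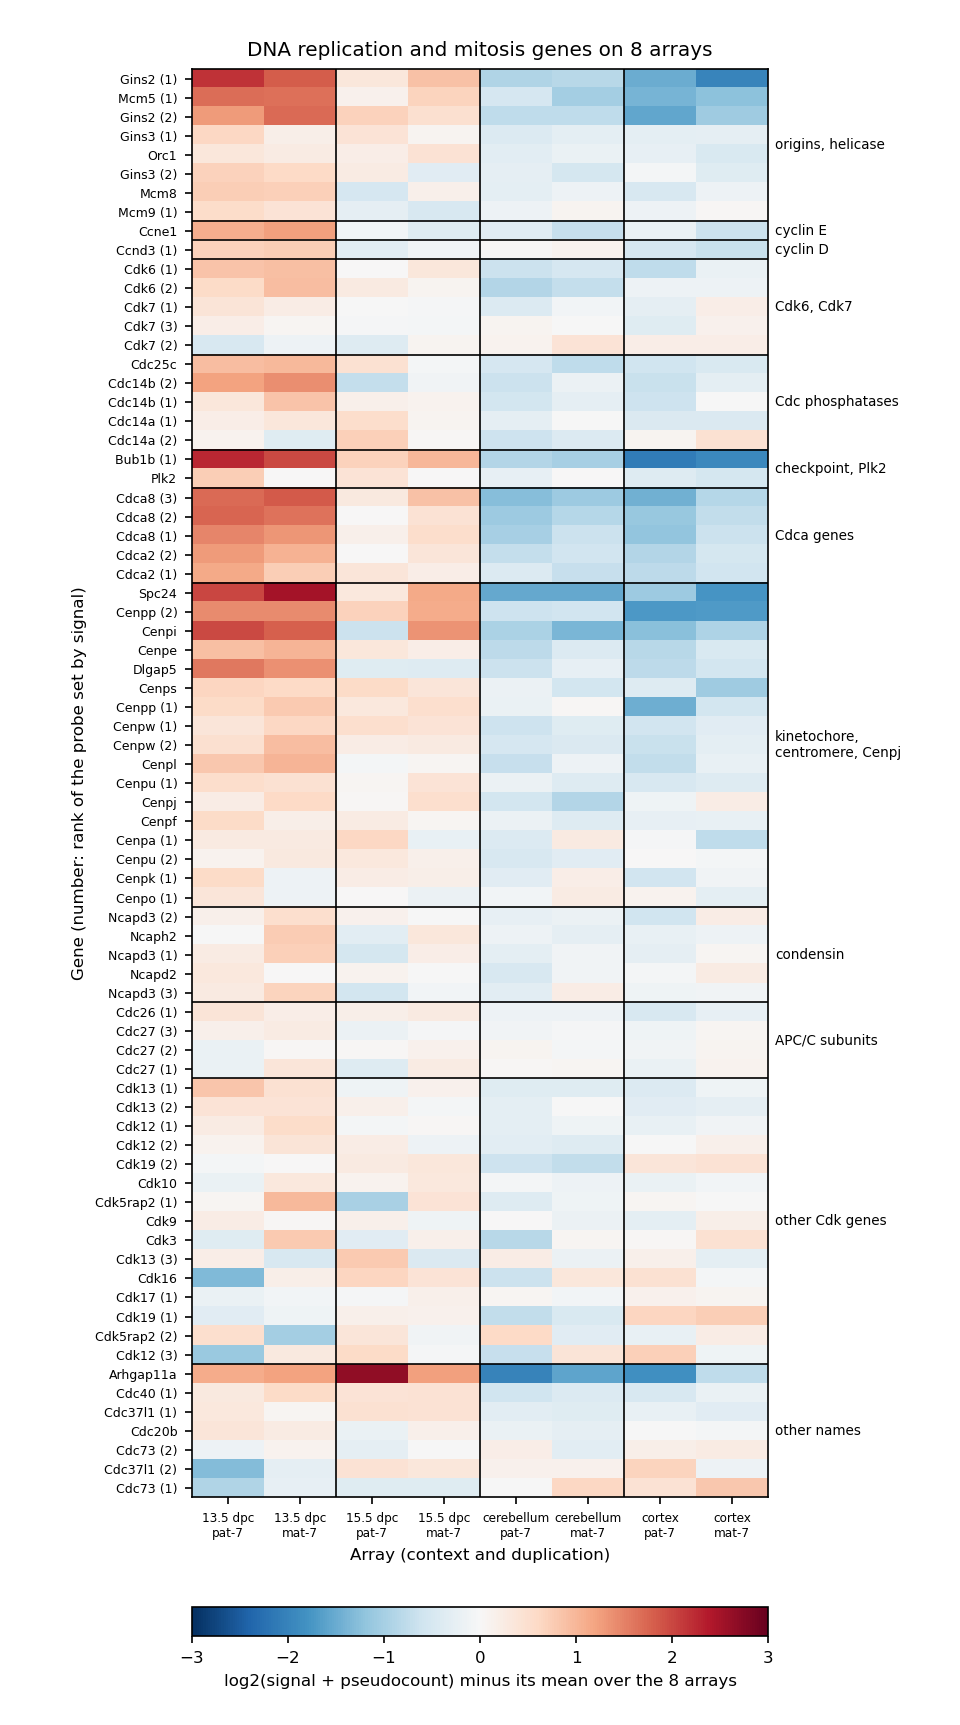
Each row is 1 of the 75 tested probe sets, grouped by role, and each column 1 of the 8 arrays in order of age; colour is log2(signal + 58.5) minus the mean of its row. Gins2, Mcm5, Bub1b, Spc24 and the Cdca genes are red at 13.5 dpc and blue in cerebellum and cortex, Mcm9, Plk2, Cenpa and Cenpo show no such split, and most rows of condensin, APC/C and other Cdk genes stay pale.

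Promoters are shown for the 4 genes with the largest called falls that have an entry in the RefSeq table (GRCm38.p6), Arhgap11a, Bub1b, Cdca8 and Cenpp, and for Cdc73 and Cdk7, which were called higher. Spc24 and Gins2 are named only. Each run covers 250 bases before to 50 bases after the annotated start, 5′ to 3′ on the strand of the gene. Capitals mark matches, on either strand, to an E2F site (TTTGGCG, its variant TTTCCCG or its variant TTTCGCG), a CHR element (TTTGAA) or a CCAAT box (these 5 letters, or ATTGG from the other strand), sequences known from promoters of cell cycle genes.
Arhgap11a, chr2:113848612-113848911, minus strand: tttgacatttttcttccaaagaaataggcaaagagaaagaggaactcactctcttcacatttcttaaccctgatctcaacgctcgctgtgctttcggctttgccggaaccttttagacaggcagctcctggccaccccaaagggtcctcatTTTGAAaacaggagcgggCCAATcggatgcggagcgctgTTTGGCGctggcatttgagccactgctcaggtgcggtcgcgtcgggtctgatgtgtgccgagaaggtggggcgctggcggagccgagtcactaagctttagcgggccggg
Bub1b, chr2:118597961-118598260, plus strand: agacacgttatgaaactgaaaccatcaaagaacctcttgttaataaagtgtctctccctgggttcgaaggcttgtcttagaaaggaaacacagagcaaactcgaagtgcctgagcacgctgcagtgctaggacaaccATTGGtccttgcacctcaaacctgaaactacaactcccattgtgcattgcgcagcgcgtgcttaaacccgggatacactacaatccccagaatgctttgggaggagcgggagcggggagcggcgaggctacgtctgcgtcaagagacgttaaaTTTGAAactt
Cdca8, chr4:124936868-124937167, minus strand: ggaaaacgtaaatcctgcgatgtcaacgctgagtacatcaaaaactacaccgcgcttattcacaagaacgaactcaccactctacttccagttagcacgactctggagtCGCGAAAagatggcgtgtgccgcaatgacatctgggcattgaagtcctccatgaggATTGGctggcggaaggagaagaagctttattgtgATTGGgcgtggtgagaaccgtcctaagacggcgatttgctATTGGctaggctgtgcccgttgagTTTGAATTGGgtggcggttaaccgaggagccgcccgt
Cenpp, chr13:49652682-49652981, minus strand: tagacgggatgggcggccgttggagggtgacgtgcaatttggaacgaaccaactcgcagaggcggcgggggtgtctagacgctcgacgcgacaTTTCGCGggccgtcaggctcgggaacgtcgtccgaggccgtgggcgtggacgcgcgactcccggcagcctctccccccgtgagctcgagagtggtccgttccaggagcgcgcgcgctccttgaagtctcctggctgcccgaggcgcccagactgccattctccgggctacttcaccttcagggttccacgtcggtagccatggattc
Cdc73, chr1:143702844-143703143, minus strand: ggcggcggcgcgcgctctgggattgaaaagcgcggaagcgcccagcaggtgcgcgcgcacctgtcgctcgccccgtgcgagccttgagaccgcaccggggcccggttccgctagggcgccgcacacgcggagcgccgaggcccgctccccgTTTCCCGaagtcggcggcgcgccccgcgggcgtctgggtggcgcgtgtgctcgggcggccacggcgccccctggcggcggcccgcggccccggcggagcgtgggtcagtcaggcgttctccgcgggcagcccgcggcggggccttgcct
Cdk7, chr13:100730893-100731192, minus strand: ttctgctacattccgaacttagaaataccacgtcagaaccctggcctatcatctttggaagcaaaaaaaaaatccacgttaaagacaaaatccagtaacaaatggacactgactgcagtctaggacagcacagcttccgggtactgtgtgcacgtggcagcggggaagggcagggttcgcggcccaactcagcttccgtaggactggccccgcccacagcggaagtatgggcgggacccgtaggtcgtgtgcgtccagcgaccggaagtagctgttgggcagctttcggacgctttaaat
Arhgap11a held 1 match of each kind, its E2F match 60 bases and its CHR match 99 bases before the start. Bub1b held a CHR and a CCAAT match, and Cdca8 an E2F match, a CHR match and 4 CCAAT matches, of which the last overlaps the CHR match in 1 run of capitals. Cenpp held an E2F match alone, as did Cdc73, and Cdk7 held none of the 3. An E2F match was present in 30.8% of the 65 windows of 54 of these genes and in 5.58% of all 32851 windows in the table, a CHR match in 32.3% and 17.9%, a CCAAT match in 55.4% and 37.4%, and a CHR match together with a CCAAT match in 21.5% and 6.95%. Of the 29 windows of genes called lower in neonatal arrays, 34.5% held an E2F match, 37.9% a CHR match and 55.2% a CCAAT match. In the 19 windows of genes tested and not called, these shares were 15.8%, 26.3% and 52.6%. Among the 15 windows of genes too dim to test they were 40%, 33.3% and 66.7%. These are counts of letters in a window, some genes have several windows, base composition was not matched, and binding was not measured.

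Origin and helicase genes gave 7 called falls among 8 probe sets, with a median of -0.63. Gins2, a subunit of the complex that switches on the helicase, read 508 and 538 units in cerebellum and 319 and 212 in cortex, against 1282 and 1900.4 at 15.5 dpc and 4711 and 3649.5 at 13.5 dpc. Every neonatal array lay below every embryonic one, with a difference of -2.60 ± 0.20 (limma adjusted p = 0.000729), and its second probe set gave -2.07 ± 0.16 (limma adjusted p = 0.000799). Mcm5, a subunit of the replicative helicase, read 1152 and 798 units in cerebellum and 594 and 677 in cortex, against 1834 and 2693 at 15.5 dpc and 5460.1 and 5386 at 13.5 dpc, again without overlap, and differed by -2.07 ± 0.19 (limma adjusted p = 0.00107). Its probe set is of a type that can match related transcripts, as are the tested ones of Ccne1, Cdc25c and Cenpa. A further type, whose probes can match several transcripts, includes the tested probe set of Bub1b and the brightest of Gins2 and Ncapd3. The brightest and second probe sets of Cdca8 are of that type too.

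Falls were smaller in the other origin genes. Gins3, another subunit of the Gins complex, read 647 and 717 units in cerebellum and 708 and 721 in cortex, against 1192 and 940.2 at 15.5 dpc and 1388 and 999 at 13.5 dpc, a difference of -0.64 ± 0.15, and its second probe set gave -0.60 ± 0.14. Orc1, the largest subunit of the origin recognition complex, read 871 and 941 units in cerebellum and 908 and 778 in cortex, against 1273 and 1495 at 15.5 dpc and 1409 and 1316 at 13.5 dpc, with no overlap between the stages and a difference of -0.62 ± 0.14. Mcm8, which acts with Mcm9 in recombination repair, fell by 0.54 on the log2 scale, its 15.5 dpc paternal-7 array, at 226 units, reading below all neonatal ones. Adjusted p-values of these calls lay between 0.0176 for Orc1 and 0.0403 for Mcm8. Mcm9 itself differed by -0.11 ± 0.14 (limma adjusted p = 0.577) and was not called, reading 363 and 435 units in cerebellum and 361 and 418 in cortex, against 329 and 279 at 15.5 dpc and 625 and 568 at 13.5 dpc.

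The cyclins and kinases of the G1 and S phases were less uniform. Ccne1, cyclin E1 of chromosome 7, which drives entry into S phase, read 944 and 732 units in cerebellum and 1048 and 764 in cortex, against 1146 and 938 at 15.5 dpc and 2674 and 2949 at 13.5 dpc. It fell by 0.94 (adjusted p = 0.00530), and the 13.5 dpc arrays alone stood clear of the rest, since at 15.5 dpc the signals overlapped those of the neonatal regions. Ccnd3, a D cyclin that binds Cdk6, read 483 and 513 units in cerebellum and 313 and 271 in cortex, against 365 and 434 at 15.5 dpc and 791 and 823 at 13.5 dpc and differed by -0.51 ± 0.13 (limma adjusted p = 0.0294), with the cerebellum arrays above both 15.5 dpc arrays. Other cyclins of these classes were not analysed here.

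Cdk6, the G1 kinase that D cyclins switch on, read 693 and 762 units in cerebellum and 626 and 961 in cortex, against 1129 and 1432 at 15.5 dpc and 2046 and 2112 at 13.5 dpc. Both probe sets fell, at -1.06 and -0.94 (adjusted p = 0.00340 and 0.00499), both without overlap. Cdk7, which activates other Cdks and also belongs to the transcription factor TFIIH, gave probe sets of opposite sign. Its second probe set read 580.3 and 722 units in cerebellum and 618 and 624 in cortex, against 396 and 562 at 15.5 dpc and 365 and 475 at 13.5 dpc, all neonatal arrays above all embryonic ones, and rose by 0.46 ± 0.14 (limma adjusted p = 0.0432). The brightest stood at -0.28 ± 0.16 and the third at -0.08 ± 0.16, neither of them called, and the rise was not called when any 1 of the 8 arrays was left out (adjusted p from 0.0560 to 0.178).

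Phosphatases that counteract or release Cdks fell in 4 of 5 probe sets. Cdc25c, which activates Cdk1 at the entry to mitosis, read 357 and 287 units in cerebellum and 329.7 and 372 in cortex, against 752 and 508 at 15.5 dpc and 1059.9 and 1099.9 at 13.5 dpc, fell by 1.16 (adjusted p = 0.00339) and did not overlap between the stages. Cdc14b, a phosphatase with roles at mitotic exit and in the DNA damage checkpoint, fell in both probe sets, at -0.73 and -0.89. The second of them read 344 and 493 units in cerebellum and 338 and 449.5 in cortex, against 320.4 and 524 at 15.5 dpc and 1392 and 1576 at 13.5 dpc, so that the 13.5 dpc arrays alone were high. Cdc14a, its paralogue, differed by -0.58 ± 0.16 in the called probe set (adjusted p = 0.0367) and by -0.26 ± 0.21 in the other.

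Bub1b, the checkpoint protein BubR1, read 167 and 151 units in cerebellum and 38.5 and 50.7 in cortex, against 609.9 and 766 at 15.5 dpc and 1929.8 and 1587 at 13.5 dpc. Every neonatal signal lay below the median of its array and every embryonic signal above it, with the cortex lowest of all. Its difference was -2.95 ± 0.15 (limma adjusted p = 0.000565), at least 4.70-fold when the neonatal side is set no lower than the array median. Plk2, a polo-like kinase that acts on centrioles and in neurons at synapses, differed by -0.59 ± 0.18 (limma adjusted p = 0.0518) and was not called, with maternal-7 signals of 326 in cerebellum against 327 at 15.5 dpc. Bub3, the other checkpoint gene and, with Ccne1, 1 of 2 of these genes on chromosome 7, read between 103 and 313 units and was too dim to test.

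All 5 tested probe sets of Cdca genes fell, each without overlap. Cdca8, borealin of the chromosomal passenger complex, read 1234 and 1581 units in cerebellum and 1071 and 1581 in cortex, against 2769.9 and 3645 at 15.5 dpc and 6972 and 6361 at 13.5 dpc in its brightest probe set. Its 3 probe sets fell, at -1.73, -1.91 and -2.34 (adjusted p from 0.000574 to 0.00104), and the last is at least 3.96-fold. Cdca2, which brings protein phosphatase 1 to chromosomes, read 579.6 and 468 units in cerebellum and 434 and 512 in cortex, against 1029 and 906 at 15.5 dpc and 1807 and 1355 at 13.5 dpc, and its 2 probe sets fell, at -1.22 and -1.35. Both genes thus gave the same order in every probe set tested, embryonic above neonatal.

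Of 17 probe sets of centromere, kinetochore and spindle genes, 13 from 11 genes fell and the rest did not pass the test, with a median of -0.95. Spc24, a subunit of the Ndc80 complex that grips microtubules, read 102 and 104 units in cerebellum and 163 and 78.4 in cortex, against 527 and 971 at 15.5 dpc and 1809.9 and 2575 at 13.5 dpc. All neonatal signals were below the array median, and the difference of -2.97 ± 0.25 (limma adjusted p = 0.000927) is at least 5.34-fold. Cenpp, of the constitutive centromere network, read 109.9 and 115 units in cerebellum and 19.9 and 21.2 in cortex, against 361 and 499.6 at 15.5 dpc and 637 and 629 at 13.5 dpc in its second probe set, which fell by 2.31 (adjusted p = 0.000574), and its brightest fell by 1.09. Cortex arrays were the lowest in both.

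Cenpi, another gene of that network, read 54.1 and 25.2 units in cerebellum and 32.7 and 54.9 in cortex, against 80.7 and 489.5 at 15.5 dpc and 802 and 698 at 13.5 dpc. It differed by -2.25 ± 0.38 (limma adjusted p = 0.00677), with the paternal-7 array at 15.5 dpc near the neonatal level and the maternal-7 array well above it. Every neonatal signal of Cenpi, and the paternal-7 signal at 15.5 dpc, lay below the array median. The size of this fall is therefore limited by signal over background. Cenpe, a mitotic kinesin that carries chromosomes to the spindle equator, read 396 and 536 units in cerebellum and 384 and 519 in cortex, against 942 and 838 at 15.5 dpc and 1411 and 1541 at 13.5 dpc and fell by 1.23 (adjusted p = 0.00229). Cenps and Cenpw, histone-fold proteins of the network, fell as well, Cenps at -1.09 and the 2 probe sets of Cenpw at -0.95 and -0.95, and so did Cenpl at -0.92, all without overlap. Cenpl exceeded the array median on the 13.5 dpc arrays alone, so its order among the other arrays is one of dim signals. Dlgap5, which bundles spindle microtubules, read 55.4 and 90.0 units in cerebellum and 44.2 and 62.7 in cortex, against 79.4 and 78.0 at 15.5 dpc and 476 and 399.5 at 13.5 dpc. Its fall of 1.11 (adjusted p = 0.00330) is carried by the 13.5 dpc arrays, since the others all lay below the array median.

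Cenpu, of the same network, fell by 0.73 in its brightest probe set, read 712 and 604 units in cerebellum and 565 and 608 in cortex, against 850.4 and 1108 at 15.5 dpc and 1197 and 1133 at 13.5 dpc there, and stood at -0.43 ± 0.14 (adjusted p = 0.0524) in the other. Cenpf, a large protein of the outer kinetochore, fell too (-0.52), as did Cenpj, which despite its name builds centrioles (-0.68). Cenpa, the histone variant that marks centromeres, stood at -0.46 ± 0.26, Cenpk and Cenpo, of the centromere network, at -0.41 ± 0.23 and -0.01 ± 0.18, and none of them was called. Signals of Cenpa and Cenpk exceeded the array median on 3 of 8 arrays each, so little can be read from them.

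**Figure D2:**
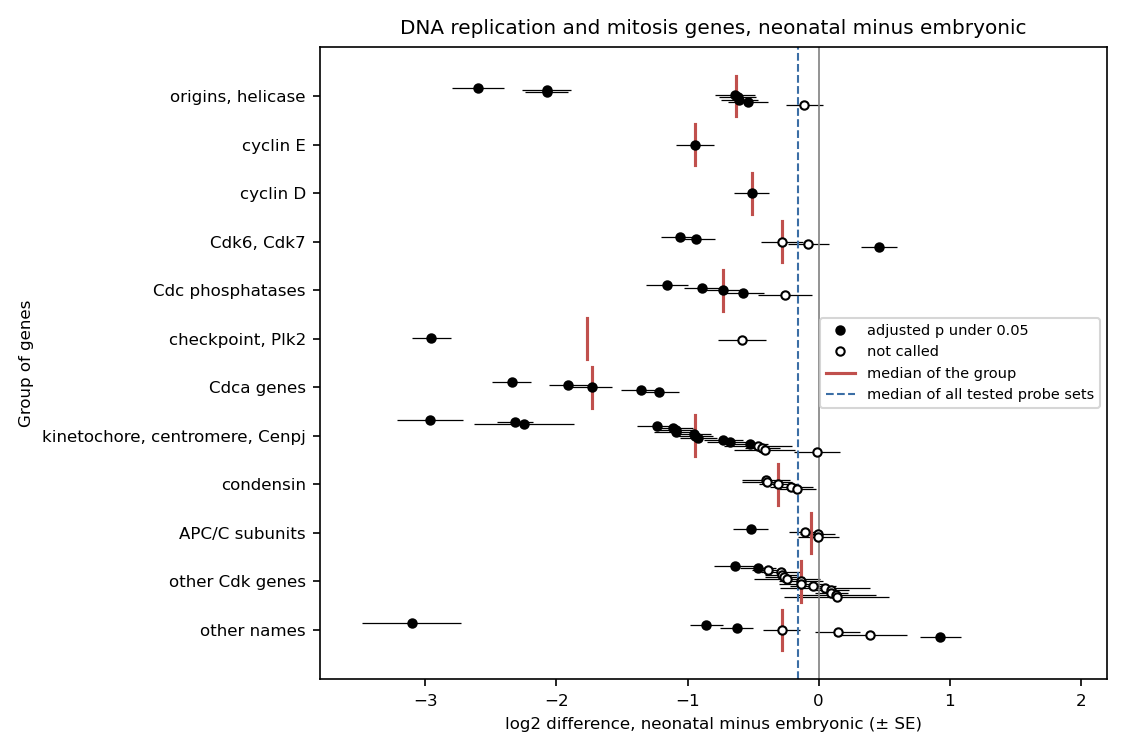
Each point is the log2 difference of 1 of the 75 tested probe sets, neonatal minus embryonic, with its standard error, by role; filled points passed the adjusted p of 0.05, red bars are group medians and the dashed line is the median of all tested probe sets, -0.16. The medians of the Cdca, origin and kinetochore groups lie left of the dashed line, with Arhgap11a at -3.10 the lowest point, although Mcm9 and Cenpo lie right of it; condensin, APC/C and other Cdk-named genes lie nearer to it, with Cdc26 and Cdk13 the called exceptions.

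Condensin genes gave 0 calls among 5 probe sets of 3 genes, with a median of -0.31. All 5 lay below 0, as did 61.9% of all tested. At an unadjusted p under 0.05 limma counted 45 of all 75 probe sets together (60%), against 45.1% of all tested. Ncapd3, a subunit of condensin II, read 664 and 773 units in cerebellum and 677 and 865 in cortex, against 557 and 967 at 15.5 dpc and 992 and 1401 at 13.5 dpc and stood at -0.31 ± 0.14 (limma adjusted p = 0.139). Ncaph2, of the same complex and the 1 gene of these on chromosome 15, read 424 and 385 units in cerebellum and 398 and 422 in cortex, against 373 and 616 at 15.5 dpc and 469.8 and 850.0 at 13.5 dpc, a difference of -0.39 ± 0.19 (limma adjusted p = 0.152), and Ncapd2 of condensin I stood at -0.21 ± 0.16. In the APC/C, Cdc26 fell by 0.52 (adjusted p = 0.0292), reading 733 and 729.7 units in cerebellum and 566 and 674 in cortex, against 934 and 993 at 15.5 dpc and 1084 and 947 at 13.5 dpc, and was called in 1 of the 8 fits that leave out an array. The 3 probe sets of Cdc27, the subunit that docks the activators, lay between -0.10 and 0.00, with the brightest at 2909.9 and 2983 units in cerebellum and 2486 and 3094 in cortex, against 2158 and 3414 at 15.5 dpc and 2463 and 3686 at 13.5 dpc.

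The other genes with Cdk names act mainly outside the cell cycle, apart from Cdk3 and from Cdk5rap2, which is a centrosome protein and no kinase. Of their 15 probe sets 2 were called, both of Cdk13, a kinase of transcription elongation, which fell, at -0.64 and -0.46. These calls were made in 2 and 1 of the 8 fits that leave out an array. The 13 others lay between -0.39 and 0.14. Their median was -0.13, beside -0.16 over all tested. Cdk13 read 1556 and 1564 units in cerebellum and 1512 and 1838 in cortex, against 1836 and 2204 at 15.5 dpc and 3645 and 2823 at 13.5 dpc, and the other probe set tested stood at -0.04. Cdk17, a kinase expressed in neurons, had the highest mean signal of all 75, 6266 and 5762 units in cerebellum and 6627 and 6459.9 in cortex, against 5867 and 6695 at 15.5 dpc and 5269 and 5682 at 13.5 dpc, and stood at 0.10 ± 0.13 (limma adjusted p = 0.584). Cdk19, a kinase of the Mediator complex, stood at 0.10 ± 0.13 and -0.28 ± 0.13, Cdk10, another transcription-related kinase, at -0.26 ± 0.15 and Cdk12, the partner of Cdk13 in function, at -0.39 ± 0.13 (adjusted p = 0.0573).

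Arhgap11a, a gene active in dividing cells, had the largest difference of all 75, -3.10 ± 0.38 (limma adjusted p = 0.00229). It read 267 and 378 units in cerebellum and 306 and 721 in cortex, against 8242 and 3022 at 15.5 dpc and 2798 and 2969 at 13.5 dpc. The paternal-7 array at 15.5 dpc stood above every other, and the lowest embryonic signal lay far above the highest neonatal one. Without that array the difference was -2.61, behind Spc24 (-3.19) and Bub1b (-3.05), and with no pseudocount it was -3.30, against -3.52 for Spc24 and -3.71 for Bub1b, so its rank depends on both. Cdc40, a splicing factor, read 1802 and 2052 units in cerebellum and 1959.5 and 2388 in cortex, against 3669.6 and 3777 at 15.5 dpc and 3388 and 4164 at 13.5 dpc and fell by 0.86 (adjusted p = 0.00447) without overlap. Cdc37l1, a co-chaperone of Hsp90, fell by 0.63 in 1 probe set and stood at 0.40 ± 0.28 in the other. Cdc73, parafibromin of the Paf1 complex in transcription, read 459 and 731 units in cerebellum and 639 and 854 in cortex, against 345 and 346 at 15.5 dpc and 218 and 379.8 at 13.5 dpc, with all neonatal arrays above all embryonic ones. It rose by 0.93 ± 0.16 (limma adjusted p = 0.00678), its second probe set stood at 0.15 ± 0.17, and the rise was not called without both 13.5 dpc arrays (0.82, adjusted p = 0.0562) or without both cortex arrays (0.77, adjusted p = 0.0711). Cdc20b, a relative of Cdc20, stood at -0.28 ± 0.14.

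**Figure D3:**
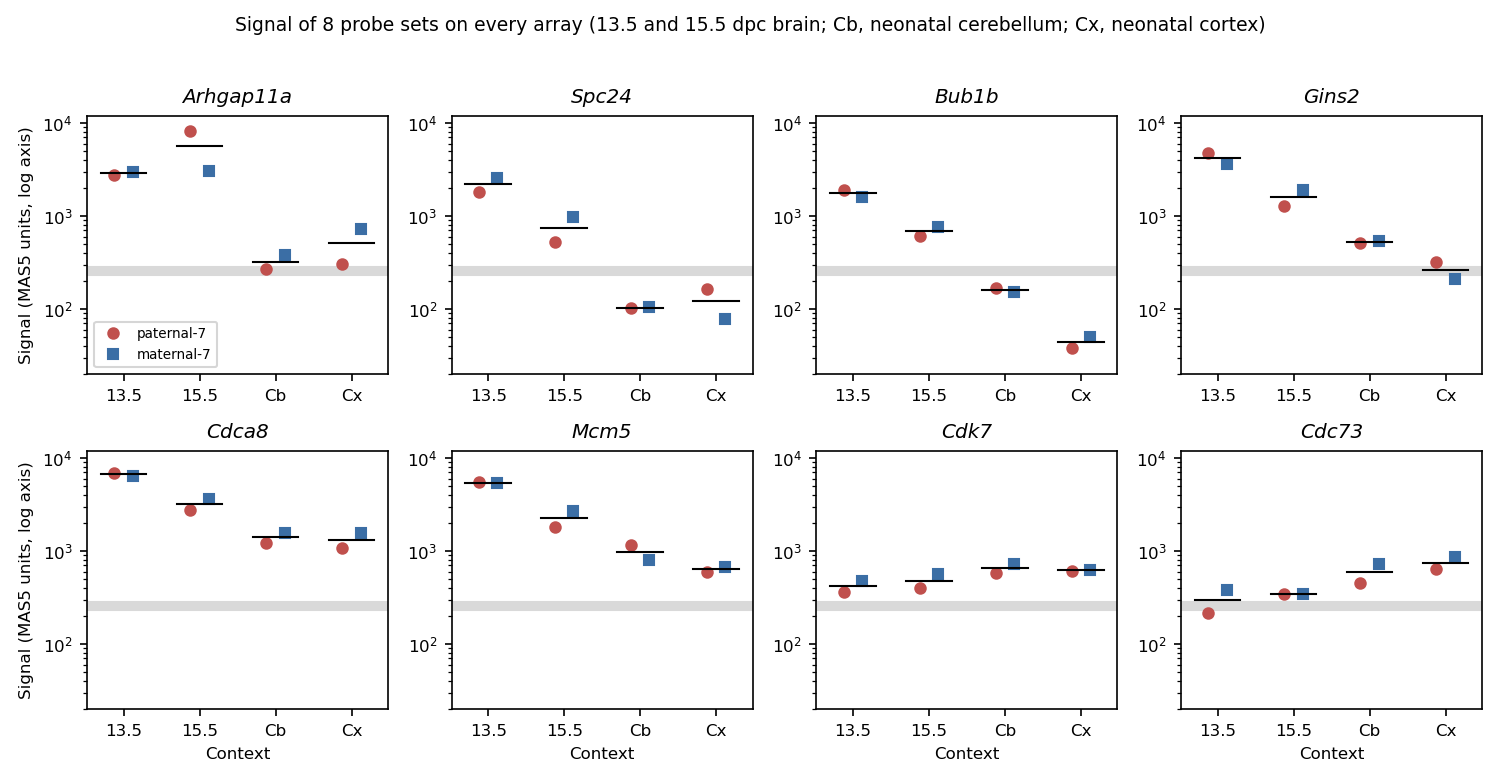
Signal on a log axis of 8 probe sets on every array, by context in order of age, with paternal-7 arrays as circles, maternal-7 arrays as squares, the mean of each pair as a line and the range of array medians in grey. Cdk7 is drawn in its second probe set, the only one of its 3 called higher, and the other genes in their brightest. Spc24 and Bub1b drop below the grey band in both neonatal regions, Gins2 reaches it in cortex, and Cdca8 and Mcm5 stay above it. The drawn probe sets of Cdk7 and Cdc73 are the 2 that stand higher in neonatal regions.

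Other genes of the same processes, from lists that are not part of the 112, fell as well in the same arrays. Of 14 tested genes of mitosis, 11 were called lower and 0 higher, with a median of -0.87. Among them Fbxo5, an inhibitor of the APC/C, stood at -1.80 ± 0.19 (adjusted p = 0.00167), Sgo2a, a protector of centromeric cohesion, at -1.68 ± 0.14, Kif20b, a mitotic kinesin, at -1.55 ± 0.14 and Sgo1 at -1.36 ± 0.25. Of 11 replication genes 4 were lower and 0 higher, with a median of -0.54. Clspn, which relays replication stress, stood at -1.23 ± 0.12, Rfc2 of the clamp loader at -0.80 ± 0.13, Top2a at -0.71 ± 0.21 and Tyms at -0.64 ± 0.19. Of 7 regulators 4 were lower, namely Chek1, a checkpoint kinase (-1.37 ± 0.27), the repressor E2f7 (-1.16 ± 0.16), the E2F partner Tfdp2 (-1.09 ± 0.15) and E2f2 (-0.86 ± 0.16). Cdkn3, a phosphatase listed with the Cdk inhibitors and the 1 gene of that list on the array, was lower at -1.38 ± 0.14.

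Markers of cell types moved between the same arrays, and their part in these differences was not tested. Of 7 tested markers of mature neurons 6 were called higher in neonatal arrays, led by the glutamate receptor gene Gria2 (2.12 ± 0.32), Grin2b (1.69 ± 0.19) and the synaptic vesicle gene Syt1 (1.59 ± 0.15). The summed signal of the 8 listed ones on the array was 44013 to 48386 units in cerebellum and 41631 to 47960 in cortex, against 25361 to 26872 at 15.5 dpc and 12092 to 15004 at 13.5 dpc. Of 4 glial markers 3 were higher, Slc1a3 at 1.15 ± 0.15, Slc1a2 at 1.13 ± 0.16 and Aqp4 at 1.03 ± 0.25. Both progenitor markers on the array, Rfx4 (0.81 ± 0.16) and Sox1 (0.66 ± 0.15), were higher, not lower, in neonatal arrays. The 2 granule precursor genes measured, Zic1 and Ptch1, stood at 0.35 and -0.30 and were not called, with summed signals of 4832 to 5134 units in cerebellum and 3938 to 6556 in cortex, ranges that overlap, while Slc17a7, a vesicular glutamate transporter of cortical neurons, was lower in cerebellum than in cortex (-2.34 ± 0.26, adjusted p = 0.0293). Prrx1, a gene of head mesenchyme, was lower in neonatal arrays (-1.83 ± 0.16). The 3 listed genes of meninges and mesenchyme summed to 526 to 600.2 units at 15.5 dpc, against 3025 to 3289 at 13.5 dpc, with Col1a2 below the array median in every context. Endothelial Flt1 stood at -0.03, the 3 choroid plexus genes gave 0 calls, and no listed gene of microglia or red blood cells was among those measured.

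Between the embryonic ages, 12 of the 75 probe sets, from 10 genes, were called lower at 15.5 than at 13.5 dpc, where 3.07% of all tested were, and 0 higher, where 3.52% of all were (6.59% in either direction). At an unadjusted p under 0.05 there were 28 of the 75 and 23% of all. Dlgap5 and Cdc14b gave the largest falls, followed by Cdca8, Ccne1, Gins2, Bub1b and Mcm5. The median was -0.27 over the 75 and -0.02 over all tested. All 12 were also among the 40 lower in neonatal arrays, a comparison that uses the same embryonic arrays.

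Dlgap5 read 79.4 and 78.0 units at 15.5 dpc, against 476 and 399.5 at 13.5 dpc, a difference of -1.85 ± 0.21 (limma adjusted p = 0.0116) and at least 1.63-fold. The second probe set of Cdc14b read 320.4 and 524 units at 15.5 dpc, against 1392 and 1576 at 13.5 dpc and fell by 1.71 (adjusted p = 0.0113), while its brightest stood at -0.46 ± 0.22. All 3 probe sets of Cdca8 fell, at -1.05, -1.47 and -1.19. Ccne1, which read 1146 and 938 units at 15.5 dpc, against 2674 and 2949 at 13.5 dpc, fell by 1.39 (adjusted p = 0.0212). Gins2 differed by -1.38 ± 0.28, Bub1b by -1.29 ± 0.21 and Mcm5 by -1.26 ± 0.27, and the smallest called falls were those of Cdca2 (-0.97), Ccnd3 (-0.92) and Cenpl (-0.91). Cenpl, like Dlgap5, lay below the array median on both 15.5 dpc arrays. In each of the 12 both 15.5 dpc arrays lay below both 13.5 dpc arrays, which was so in 39 of the 75 (52%) and in 24.1% of all tested, while 8 of the 75 and 22.5% of all lay the other way round. Spc24 stood at -1.51 ± 0.35 (limma adjusted p = 0.0549) and was not called. Arhgap11a stood at 0.78 ± 0.53, with 8242 and 3022 units at 15.5 dpc, against 2798 and 2969 at 13.5 dpc.

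These calls were fragile, as were those over all tested probe sets (406 lower and 465 higher with all arrays). Leaving out an embryonic array leaves 1 array at that age, and fewer calls then remained, among the 75 and over all alike. Without each of the 4 neonatal arrays in turn, 2 of the 75 were called lower. Beside them stood 65 lower over all without either cerebellum array and 59 without either cortex array. With no pseudocount (signals below 1 set to 1) 5 were called lower, beside 210 of all. Without the filter on dim probe sets 3 were, beside 103 of 22511. In all of these settings the 12 kept their sign. Among the other listed genes, Fbxo5 (-1.72 ± 0.28), Bora (-1.48 ± 0.28), Kif20b, Sgo2a, Clspn and E2f2 were called lower at 15.5 dpc, and 4 neuronal genes, such as Gria2 (2.40 ± 0.45), were called higher, as were the progenitor marker Sox1 (1.17 ± 0.22) and the choroid plexus gene Kcnj13 (1.03 ± 0.19). Prrx1 of the mesenchyme fell more than any of the 75 probe sets (-2.90 ± 0.23, adjusted p = 0.00579), and the part of these markers was not tested.

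Each neonatal region was then set against brain at 15.5 dpc, which both comparisons share. In cerebellum 13 probe sets of 10 genes were called lower, where 1.8% of all tested were, and 0 higher, where 3.66% of all were (5.46% in either direction). In cortex 13 of 9 genes were lower, where 1.52% of all were, and 0 higher, where 2.7% of all were (4.22% in either direction). At an unadjusted p under 0.05 there were 32 of the 75 in cerebellum (25.7% of all) and 31 in cortex (25.6% of all). Both cerebellum arrays lay below both 15.5 dpc arrays in 47 of the 75 (33.2% of all) and above them in 5 (21.9% of all), and both cortex arrays below them in 39 (34% of all) and above them in 6 (22.3% of all). The medians were -0.38 and -0.33, against -0.11 over all tested in each. A region is a part of the brain and the 15.5 dpc sample is labelled brain as such, so age and region cannot be told apart. Among cell type markers, Nefl of neurons (0.97 ± 0.19) and Slc1a3 of glia (0.95 ± 0.21) were called higher in cerebellum and Slc17a7 lower (-1.28 ± 0.26), and in cortex the neuronal genes Grin2b (1.77 ± 0.26), Camk2a (1.26 ± 0.24) and Syt1 (1.10 ± 0.21) were called higher, and their part was not tested.

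Arhgap11a differed from 15.5 dpc by -3.75 ± 0.53 in cerebellum and -3.25 ± 0.53 in cortex, the largest called falls of each. Without the paternal-7 array at 15.5 dpc, which read 8242 units, these were -2.76 in cerebellum and -2.26 in cortex (adjusted p = 0.0718 and 0.0813), no longer called, and in cortex Bub1b (-3.03) and Spc24 (-2.59) lay lower. With all arrays, Bub1b differed by -1.77 ± 0.21 in cerebellum and -2.85 ± 0.21 in cortex, the second probe set of Cenpp by -1.50 ± 0.20 in cerebellum and -2.61 ± 0.20 in cortex, Spc24 by -2.26 ± 0.35 in cerebellum and -2.16 ± 0.35 in cortex, and Gins2 by -1.48 ± 0.28 in cerebellum and -2.34 ± 0.28 in cortex. The 3 probe sets of Cdca8 were called in both regions, with values from -1.77 to -1.15 in cerebellum and from -1.73 to -1.16 in cortex. The second probe set of Gins2 was called in both too (-1.34 in cerebellum, -1.89 in cortex). The brightest probe set of Cenpw was called in both as well, at -0.95 in cerebellum and -0.92 in cortex. Its second stood at -0.72 in cerebellum and -0.73 in cortex and was called in neither. Called against 15.5 dpc in cerebellum but not in cortex were the second probe sets of Cdk19 (-0.98 in cerebellum, 0.09 in cortex) and Cdk6 (-0.98 and -0.33), and Cdc40 (-0.93 and -0.77). In cortex but not in cerebellum, Mcm5 (-1.16 in cerebellum, -1.72 in cortex), Cenps (-0.82 and -1.20) and the brightest probe set of Cenpp (-0.49 and -1.42) were called. Tested directly, cerebellum against cortex, none of these 6 differences was called. The brightest probe set of Cdk6 stood at -0.76 in cerebellum and -0.67 in cortex. That of Cdk19 stood at -0.73 in cerebellum and 0.56 in cortex, and neither of these brightest probe sets was called against 15.5 dpc.

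Ccne1 and the second probe set of Cdc14b, which fell between the embryonic ages, differed by no more than 0.30 log2 units between 15.5 dpc and either neonatal region. Dlgap5, which fell too, lay below the array median at 15.5 dpc and in both regions, so no change can be read there. The second probe set of Cdc14b differed from 15.5 dpc by 0.00 ± 0.19 in cerebellum and -0.07 ± 0.19 in cortex and Ccne1 by -0.30 ± 0.21 in cerebellum and -0.20 ± 0.21 in cortex, and none of these was called. The brightest probe set of Cdc14b stood lower, at -0.54 ± 0.22 in cerebellum and -0.45 ± 0.22 in cortex, and was not called either. Whether the 2 steps differ within a gene was not tested, since both use the 15.5 dpc arrays. In 44 of the 75 probe sets (58.7%) the mean signal was highest at 13.5 dpc, next at 15.5 dpc and lowest in the 2 neonatal regions, and 27% of all tested probe sets had that order. The mean was highest at 13.5 dpc in 56 of the 75 and in 41.4% of all.

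**Figure D4:**
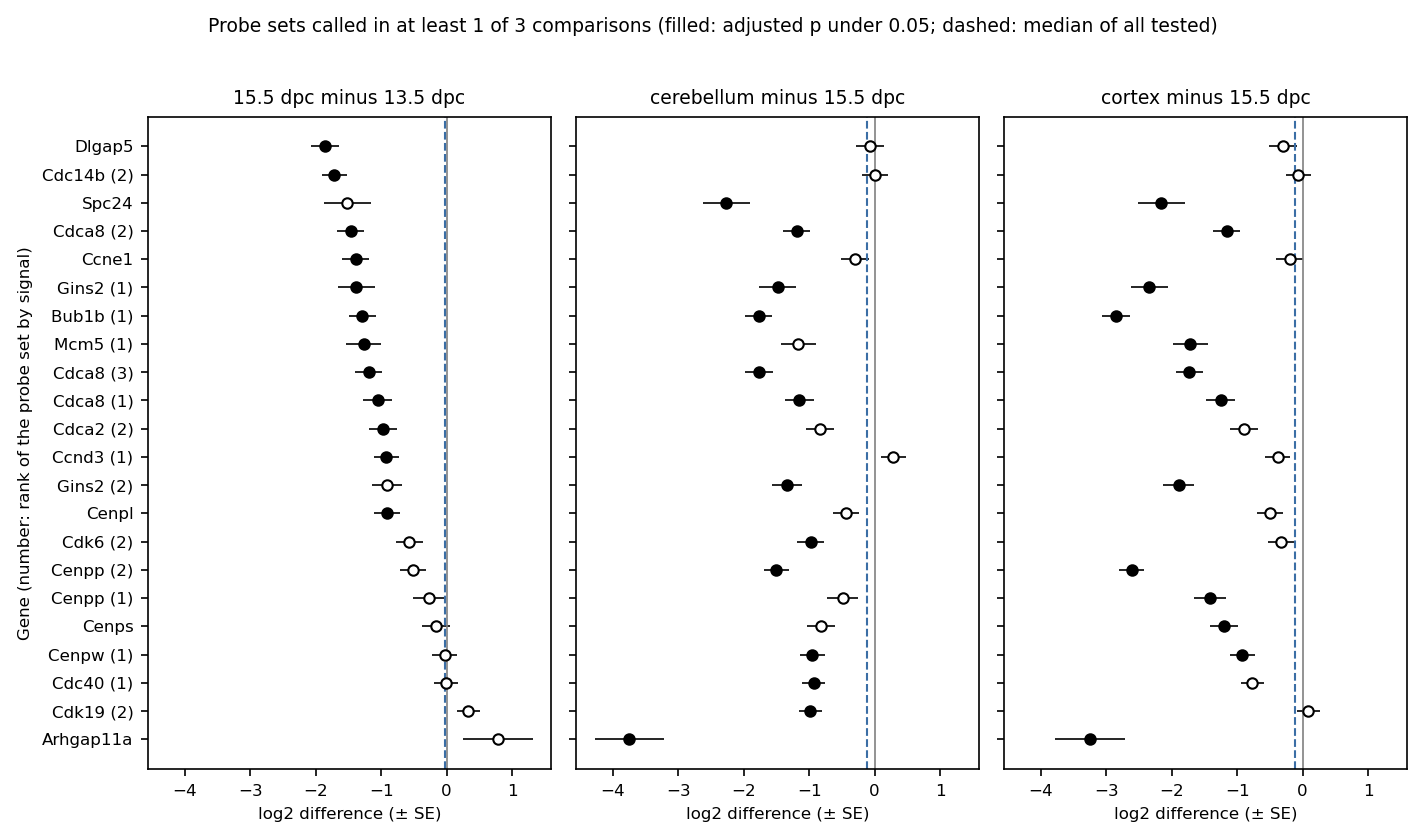
Log2 differences with standard errors of every probe set called in at least 1 of the 3 comparisons 15.5 dpc minus 13.5 dpc, cerebellum minus 15.5 dpc and cortex minus 15.5 dpc; filled points passed the adjusted p of 0.05 and dashed lines are medians of all tested probe sets. Bub1b, the brightest probe set of Gins2 and all 3 of Cdca8 are filled in all 3 panels, Dlgap5 in the first alone, and Arhgap11a is filled in the cerebellum and cortex panels and lies above 0 in the panel of embryonic ages.

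The calls against 15.5 dpc depended on single arrays, as did those over all tested probe sets. Leaving out an array of a compared context leaves 1 array on that side. Few or none of the calls then remained, among the 75 and over all tested alike. For cerebellum, 4 of the 75 were called lower without either cortex array, beside 33 lower and 71 higher over all tested. Without either 13.5 dpc array 10 were, beside 147 lower and 417 higher over all. For cortex, 12 were called lower without either 13.5 dpc array, beside 109 lower and 268 higher over all. Without either cerebellum array, 0 were called for cortex and 0 over all. The 13 calls of each region kept their sign throughout. With each array centred on its median, calls over all tested split into 687 higher and 120 lower in cerebellum (484 and 238 as deposited) and 549 and 105 in cortex (357 and 201 as deposited), and 9 and 11 of the 75 were called lower.

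No difference between cerebellum and cortex was called among the 75 probe sets. Limma called 0 of them and 0.325% of all tested, at an unadjusted p under 0.05 it counted 11 of the 75 and 7.65% of all, and the smallest adjusted p was 0.0593. Values are given for the 5 largest in each direction. Of those higher in cerebellum, Cenpp read 109.9 and 115 units in cerebellum, against 19.9 and 21.2 in cortex in its second probe set (1.11 ± 0.20), all 4 below the array median, and its brightest stood at 0.93 ± 0.24. Bub1b read 167 and 151 units in cerebellum, against 38.5 and 50.7 in cortex (1.08 ± 0.21), all 4 below the array median. Gins2 stood at 0.86 ± 0.28 and Ccnd3, which read 483 and 513 units in cerebellum, against 313 and 271 in cortex, at 0.67 ± 0.19. Of those lower in cerebellum, Cdk19 read 1209 and 1464 units in cerebellum, against 3233 and 3449 in cortex in its brightest probe set (-1.29 ± 0.18), and its second stood at -1.07 ± 0.18. Cdc14a stood at -0.78 ± 0.30 in its second probe set, Cenpj at -0.75 ± 0.24 and Cdk6 at -0.65 ± 0.20 in its second. In each of these 10 the 2 cerebellum arrays lay on 1 side of the 2 cortex arrays, which held upward for 10 of the 75 (21.4% of all) and downward for 11 (19.6% of all). Cdk19 was called lower under 4 other settings, and the second probe set of Cenpp higher under 1, given with the limits.

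Between the duplications, 0 of the 75 probe sets were called by limma, beside 0.00756% of all tested. At an unadjusted p under 0.05 it counted 10 of the 75 and 8.68% of all, and the smallest adjusted p was 0.532. The median of paternal-7 minus maternal-7 was -0.08 over the 75 and 0.01 over all tested. It lay below 0 in 58 of the 75 and in 48.1% of all, and 15 of the 75 (20%) were lower in 4 of 4 contexts, against 9.08% of all, with 4 (5.33%) higher in 4 of 4, against 9.67%. Genes of 1 pathway are not independent of each other, so these counts carry no test. By context the median difference was -0.07 at 13.5 dpc, -0.04 at 15.5 dpc, -0.13 in cerebellum and -0.17 in cortex, with SDs over the 75 of 0.475, 0.504, 0.340 and 0.383, where all tested probe sets had 0.531, 0.576, 0.416 and 0.399.

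The largest values with 1 sign in all contexts are given in the order 13.5 dpc, 15.5 dpc, cerebellum, cortex. Cdk3, a kinase close to Cdk2 in sequence, read 113, 115, 64.0 and 168 units in paternal-7 arrays, against 322, 187, 172 and 244 in maternal-7 arrays (-0.74 ± 0.17), mostly below the array median. Ncapd3 read 992, 557, 664 and 677 units in paternal-7 arrays, against 1401, 967, 773 and 865 in maternal-7 arrays (-0.44 ± 0.14), and Cdc27 read 2463, 2158, 2909.9 and 2486 units in paternal-7 arrays, against 3686, 3414, 2983 and 3094 in maternal-7 arrays (-0.39 ± 0.15). Cdc73 stood at -0.42 ± 0.16 and Cdc14b, in its second probe set, at -0.40 ± 0.14. Other tested probe sets of these genes stood at -0.02 in Cdc73 and at -0.09 and -0.12 in Cdc27. They stood at -0.34 in Cdc14b and at -0.28 and -0.36 in Ncapd3. Higher in 4 of 4 paternal-7 arrays were the third probe set of Cdk13 (0.68 ± 0.18), Cenps (0.33 ± 0.15), the second of Gins3 (0.30 ± 0.14) and Cdc37l1 (0.11 ± 0.13). Of Cdk13, both brighter probe sets stood at -0.04, and the other tested ones of Gins3 and Cdc37l1 stood at 0.15 and -0.03.

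On the duplicated chromosomes, Ccne1 of chromosome 7 read 2674, 1146, 944 and 1048 units in paternal-7 arrays, against 2949, 938, 732 and 764 in maternal-7 arrays, a difference of 0.23 ± 0.15 (limma adjusted p = 0.649). Ncaph2 of chromosome 15 read 469.8, 373, 424 and 398 units in paternal-7 arrays, against 850.0, 616, 385 and 422 in maternal-7 arrays, a difference of -0.35 ± 0.19 (limma adjusted p = 0.615). Whether either gene lies inside the duplicated proximal part was not established, since the labels give no breakpoints. A test of whether the duplication effect differs between neonatal and embryonic contexts (2 residual degrees of freedom) gave no call among the 75. Limma called 0 of them and 0% of all tested, counted 6 of the 75 at an unadjusted p under 0.05 against 9.14% of all, and gave a smallest adjusted p of 0.499.

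**Figure D5:**
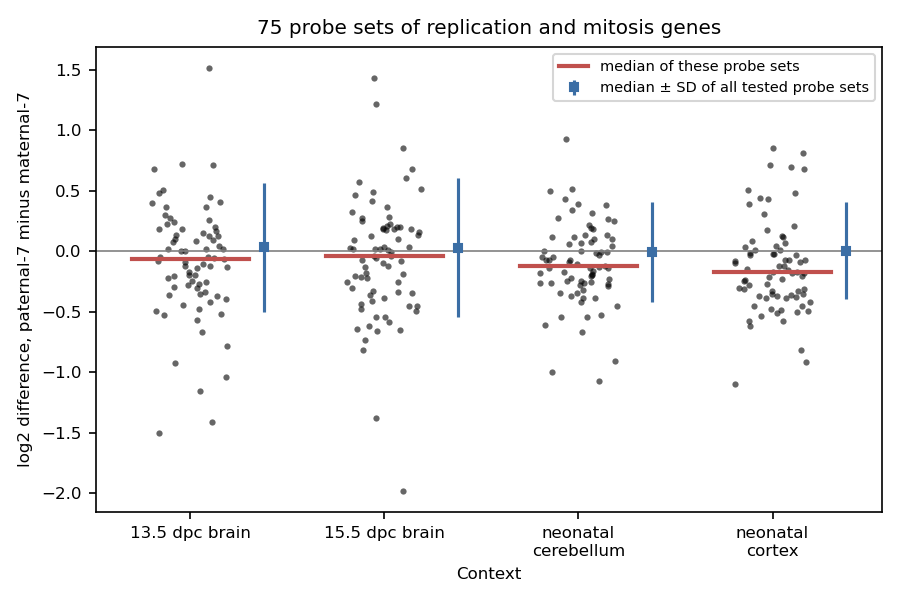
Each point is the log2 difference, paternal-7 minus maternal-7, of 1 of the 75 tested probe sets in 1 context; red bars are their medians and blue squares the median ± SD of all tested probe sets. The clouds centre between -0.17 and -0.04, within the spread of all probe sets, and the pairs of both embryonic ages scatter more widely than those of the neonatal regions.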

How the data were processed

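Biotin-labelled cRNA from each RNA sample was hybridised to 1 array, per the labels' protocols. The authors deposited linear signal intensities computed with MAS5, per the submitters' processing notes; the MAS5 version is not stated there. Detection calls were not used here. MAS5 treats every array by itself, and its dim signals are known to be noisy. Each array had a trimmed mean of 499.9 (2nd to 98th percentile). Arrays were not scaled again. Control probe sets (64) were set aside. Probe sets with several symbols (245) or none (7605) were tested but not named. All 65 genes matched the RefSeq table by identifier, with unchanged symbols. The pseudocount, 58.5, is the 20th percentile of an array's signals (median of the 8).

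Fits used all tested probe sets and all 8 arrays in limma (version 3.58.1, R 4.3.3), with the code tested on simulated data. A second model gave each stage its own duplication effect. "At least N-fold" is a ratio of geometric means without pseudocount, for a side below the array median throughout, which is raised to that median. The number of arrays limits the precision.

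Members, gene lists, roles and motifs were chosen with earlier results of these data known. Named are called probe sets (up to 15 in each direction), up to 4 genes of the highest signal per role, the 5 largest values in each direction where none was called, genes of chromosomes 7 and 15, genes whose probe sets differ in sign, and up to 4 called genes per other list; Bora, E2f2 at 15.5 dpc and further values of named genes are given for completeness. Alternatives covered scaling (quantile, array median), the pseudocount (none with signals below 1 set to 1, or 4 times as large), the filter (none, or all 8 arrays), limma's trend and robust moderation, 1 probe set per gene, and each array or context left out.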

Additional observations from a re-analysis of the deposited data

Results flagged for a closer look

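In 6 of the 75 tested probe sets, the paternal-7 minus maternal-7 difference of 1 context stood apart from the other 3 by Dixon's criterion for 4 values, which chance alone meets in about 1 of 20 sets. The criterion was applied to the 75 alone, so no share over all tested probe sets can be set beside this count. Cenpj, the centriole gene, stood at 0.31 in cerebellum, with the others between -0.46 and -0.35. The second probe set of Cenpp stood at -0.41 at 15.5 dpc (others -0.04 to 0.02), and its brightest at -0.91 in cortex (others -0.24 to -0.18), so both probe sets of Cenpp stood apart, in different contexts. Cenpw stood at 0.0937 at 15.5 dpc in its brightest probe set (others -0.27 to -0.24), and Cdk19 at 0.13 in cerebellum in its second (others -0.08 to -0.05). Cdk9, a kinase of transcription elongation, stood at -0.45 in cortex, with the others between 0.18 and 0.28. Each rests on 1 array of each duplication, and no cause was tested.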

How the results depend on the processing

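The labels carry no replicate numbers. Arrays are paired by context and duplication alone, and both are terms of the fit, so no separate blocked fit was added. Of 74 named differences, 0 changed sign under the alternatives run. For neonatal minus embryonic, 29 to 43 of the probe sets were called with all arrays kept (42 as reported), 27 to 38 without 1 array and 17 to 41 without a context. For 15.5 minus 13.5 dpc (12 as reported), 5 were called with no pseudocount and 3 without the filter on dim probe sets, and 0 to 6 without 1 array. For cerebellum minus 15.5 dpc (13), the counts were 4 with no pseudocount, 2 without the filter, 22 with a pseudocount 4 times as large, 23 with trend and robust moderation, and 0 to 10 without 1 array. For cortex minus 15.5 dpc (13), they were 5, 3 and 20 with no pseudocount, no filter and trend and robust moderation, and 0 to 12 without 1 array. For cerebellum minus cortex (0), both probe sets of Cdk19 made 2 calls with the larger pseudocount, with a filter on all 8 arrays and with trend and robust moderation. Cdk19 made 1 call with 1 probe set per gene and Cenpp 1 with no pseudocount, and 0 were called with any 1 array left out. The duplication gave 0 under every alternative run. In neonatal minus embryonic and in the comparisons with 15.5 dpc, calls over all tested probe sets also fell with any 1 array left out. The causes were not tested. Where neonatal signals lie below the array median, as in Spc24 and Bub1b, the size of a fall is limited by signal over background.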
